A study of Mus musculus with 3 samples.

Results

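The proneural basic helix-loop-helix (bHLH) factors examined here were Atoh7, Neurog2, Olig2, Neurod1, Neurod2, Neurod4 and Hes6, 7 of the 19946 genes listed in the raw RNA matrices of 3 single-cell libraries of mouse retina. They were taken by name, and their transcripts were read in every deposited cell type of every explant and retina. The explant library held 8 wild-type CD1 explants, with 2 at each of 0, 5, 50 and 500 nM of a small-molecule agonist of the somatostatin receptor Sstr2. Retinas were taken at embryonic day 14, grown for 6 days on membranes and labeled as postnatal day 0. The P0 and P14 libraries each held 5 untreated retinas labeled C57BL/6 / CD1, bred from an intercross of Sstr2 heterozygotes that carry a targeted deletion (em1(IMPC)Mbp) made in C57BL/6NCrl mice and outbred to CD1. At each age there was 1 wild-type, 2 heterozygous and 2 knockout retinas. Culture, strain and library cannot be told apart between explants and P0 retinas, nor can age and library between P0 and P14. All 7 factors were in the explant and P0 matrices and 6 in the P14 matrix, where Olig2 was not analysed.

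The libraries held 5607 explant cells, 5706 P0 cells and 3298 P14 cells, each assigned by the authors to an explant or retina and to a cell type. The summed count of unique molecular identifiers (UMIs) was 1281682 to 4237324 per explant, 8822880 to 10793649 per P0 retina and 1266730 to 5886669 per P14 retina. Libraries shared 4 to 9 cell barcodes by pairs. Labeled cell types held their own marker lists, with exceptions. P0 neurogenic progenitors held 1597 CPM (counts scaled to the same total in each sample) of the primary progenitor list beside 1054 of their own, and P0 photoreceptors 1623 beside 1870. Explant cells labeled retinal ganglion cells (RGCs) held 3923 CPM of the 8-gene RGC list against 11442 at P0, together with 591 CPM of the 6-gene amacrine list. The P14 amacrine cells held 3687 CPM of the horizontal cell list beside 1660 CPM of their own. Cells with a Xist UMI made up 98.3 to 99.3% of 3 explants, which were 5 nM replicate 1 and both at 500 nM, and 57.7 to 62.4% of the other 5, so the mix of sexes differed with dose. P0 heterozygous replicate 1 and knockout replicate 2 also held such cells at about 99%, and P14 heterozygous replicate 2 at 72.7%, against 1.8 to 4.29% in the other P14 retinas.

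Proneural bHLH factors are transcription factors that bind E-box DNA, whose core reads CANNTG, as dimers with the widely expressed E proteins, and they switch on programs of neuronal differentiation. In the retina, progenitors that are about to leave the cell cycle pass through a neurogenic state in which these factors are transiently made. Notch signaling and the Hes repressors hold the factors down, and Id proteins take up their E protein partners. Atoh7 acts in the development of RGCs, Neurog2 and Olig2 mark neurogenic progenitors, and Neurod1 and Neurod4 act in photoreceptor, amacrine and bipolar cell differentiation. Neurod2 is known in subsets of amacrine and ganglion cells, and Hes6 is an atypical Hes protein that counters Hes1 and promotes differentiation.

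In the GENCODE M21 annotation of GRCm38, Atoh7 lay at chr10:63099651-63101279 and Neurog2 at chr3:127633135-127635631, both on the plus strand. Olig2 lay at chr16:91225457-91228677 on the plus strand. Neurod1 lay at chr2:79452521-79456751 and Neurod2 at chr11:98325415-98329648, both on the minus strand. Neurod4 lay at chr10:130268152-130280240 and Hes6 at chr1:91411483-91414038, also on the minus strand. Neurod1 overlapped Cerkl on its own strand and Gm26755 on the other, so its counts are uncertain to the extent that reads were shared with them. Neurod2 was 15.3 Mb from Sstr2 on chromosome 11, the gene deleted in the allelic series.

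The promoters of Atoh7, Neurod1 and Neurod4 are shown because the results below turn mostly on these genes and because E-boxes are the sequence that this family binds. The sequences are from RefSeq on GRCm38.p6, read 5′ to 3′ on the gene's strand and ending before the annotated gene start, with E-boxes in capitals.
Atoh7, chr10:63099535-63099650, plus strand: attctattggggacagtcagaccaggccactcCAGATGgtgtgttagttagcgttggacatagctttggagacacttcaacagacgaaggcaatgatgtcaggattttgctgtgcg
Neurod1, chr2:79456752-79456886, minus strand: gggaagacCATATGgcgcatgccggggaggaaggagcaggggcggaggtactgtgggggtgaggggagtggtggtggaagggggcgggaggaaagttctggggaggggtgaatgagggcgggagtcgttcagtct
Neurod4, chr10:130280255-130280504, minus strand: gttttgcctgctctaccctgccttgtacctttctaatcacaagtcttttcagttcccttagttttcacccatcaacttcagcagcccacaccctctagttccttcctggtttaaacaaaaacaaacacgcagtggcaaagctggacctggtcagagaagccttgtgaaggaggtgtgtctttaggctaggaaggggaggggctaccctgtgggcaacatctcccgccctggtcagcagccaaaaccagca
All 7 factors matched a RefSeq promoter. In the 250 bases before the RefSeq start, searched on both strands, CANNTG occurred 3 times at Atoh7, once at Neurod1, 3 times at Neurod2, and 3 times and once at the Hes6 promoters, and not at Neurog2, Olig2 or Neurod4. At Atoh7 only the first of its 3 E-boxes lay in the bases printed above, and the others lay past the GENCODE gene start. For comparison, 66% of 27025 mouse promoters of the same length held CANNTG. The CAGATG form, which is contained in CANNTG, was found at Atoh7 and Neurod2 and in 14.5% of all promoters. The CATATG form was found at Neurod1 and Neurod2 and in 3.47% of all promoters. The CACNAG sequence, which is bound by Hes factors, occurred 2 times at the first Neurod4 promoter, once at the second Neurod4 and once at the second Hes6 promoter, and in 36.7% of all promoters. These matches are descriptions of the letters in these windows.

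Cell types were named by the authors from clusters made with all genes, these factors included, so differences between types are given with no test. Levels are CPM of UMIs summed over the cells of a sample, and since the libraries were read at the 3′ end they are compared between cell types for 1 gene at a time. Atoh7 was highest in neurogenic progenitors of the explants, with 1250 and 1156 CPM at 0 nM, 1840 and 1778 at 5 nM, 1256 and 1143 at 50 nM and 1681 and 1616 at 500 nM. The mean was 1465 ± 292 CPM (SD, n = 8), and all 8 values lay above the highest photoreceptor value. Photoreceptors followed at 193 ± 43.6 CPM and amacrine cells at 79.9 ± 44.4, and the ranges of these 2 types overlapped. In the P0 retina Atoh7 was again highest in neurogenic progenitors, at 354 ± 150 CPM (SD, n = 5), with photoreceptors at 116 ± 38.0. Neurogenic progenitors held 72.5% of all Atoh7 UMIs of the explant library and 60.9% of those at P0. Cells labeled RGCs, in whose development Atoh7 acts, held 19.8 ± 21.4 CPM in explants and 2.57 ± 2.04 at P0, the lowest mean of the 5 types in both. These means rested on 18 and 7 UMIs, and the ranges overlapped those of primary progenitors in both libraries.

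Olig2 was the factor most limited to neurogenic progenitors among those read at P0. It was at 110 ± 18.8 CPM in neurogenic progenitors of explants (SD, n = 8) and 99.3 ± 14.8 at P0 (SD, n = 5). The next type, amacrine cells, held 13.9 ± 9.38 and 7.28 ± 3.25 CPM, with ranges apart from neurogenic progenitors in both libraries. Neurogenic progenitors held 63.8% of the Olig2 UMIs in explants and 77.8% at P0, the largest share for any of the 7 factors at P0.

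Neurog2, a direct activator of neuronal genes, was at 298 ± 46.3 CPM in P0 neurogenic progenitors and 79.8 ± 8.53 in P0 amacrine cells (SD, n = 5). In explants, neurogenic progenitors were at 192 ± 26.2 CPM and amacrine cells at 129 ± 26.1 (SD, n = 8), and their ranges overlapped. The explant cells labeled RGCs had the highest mean, 296 ± 205 CPM, but rested on 200 cells and spread from 52.8 to 601 CPM. In P0 RGCs there was no Neurog2 UMI in 85 cells, which allows up to 3.53% of cells with a UMI and 1.31 CPM over the summed counts. The 2 libraries thus differed for the RGC label, whose marker content also differed as given above, and the part of that in the Neurog2 level was not tested.

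Hes6 was highest in neurogenic progenitors at nearly the same level in both libraries, 1660 ± 155 CPM in explants (SD, n = 8) and 1649 ± 109 at P0 (SD, n = 5). It was the factor with the highest level in primary progenitors relative to its neurogenic level, at 712 ± 57.9 CPM in explants and 456 ± 41.4 at P0. Because primary progenitors were more numerous, they held 39.5% of the Hes6 UMIs of the explants and 47.2% of those at P0. Photoreceptors were at 345 ± 42.0 and 385 ± 21.6 CPM.

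Neurod1, a factor of photoreceptor differentiation and survival, was highest in photoreceptors, at 1986 ± 88.3 CPM in explants and 2385 ± 328 at P0. Neurogenic progenitors came next at 731 ± 84.0 and 957 ± 114 CPM, with ranges apart from photoreceptors in both libraries. Their level was 36.8% of the photoreceptor level in explants and 40.1% at P0. The summed photoreceptor marker list was close to this, at 33.8% and 38.5%, and the rod marker list was at 1.97% and 1.52%. The part of these markers in the Neurod1 level was not tested. In primary progenitors the level was 4.14% of the photoreceptor level in explants and 1.51% at P0, beside 4.88% and 2.23% for the summed photoreceptor marker list. Against the rod marker list, which was at 1.72% in explants and 1.87% at P0, the Neurod1 value was higher in explants and lower at P0. Amacrine cells held more, with 6.81% for Neurod1 against 3.11% for the marker list in explants and 12.1% against 5.67% at P0.

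Neurod4, which acts in amacrine and bipolar cell formation, had its highest level in photoreceptors, at 664 ± 51.2 CPM in explants and 1329 ± 218 at P0. In explants the neurogenic progenitors were at 535 ± 94.4 CPM and overlapped photoreceptors, whereas at P0 they were at 500 ± 63.8 CPM and lay apart. Amacrine cells were at 133 ± 21.3 CPM in explants and 313 ± 62.2 at P0, apart from primary progenitors at 22.9 ± 7.89 and 15.5 ± 5.68. Neurod4 was nearly unread in P0 RGCs, with 2 UMIs in 85 cells.

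Neurod2 was sparse before P14. Its highest mean in explants was 10.2 ± 5.88 CPM in neurogenic progenitors, beside 9.17 ± 2.66 in amacrine cells, and the ranges overlapped. At P0 it was read in RGCs at 15.7 ± 18.8 CPM and in amacrine cells at 14.3 ± 5.15, which held 61.7% of its UMIs. These means rested on 31 UMIs in RGCs and 116 in amacrine cells.

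**Figure D1:**
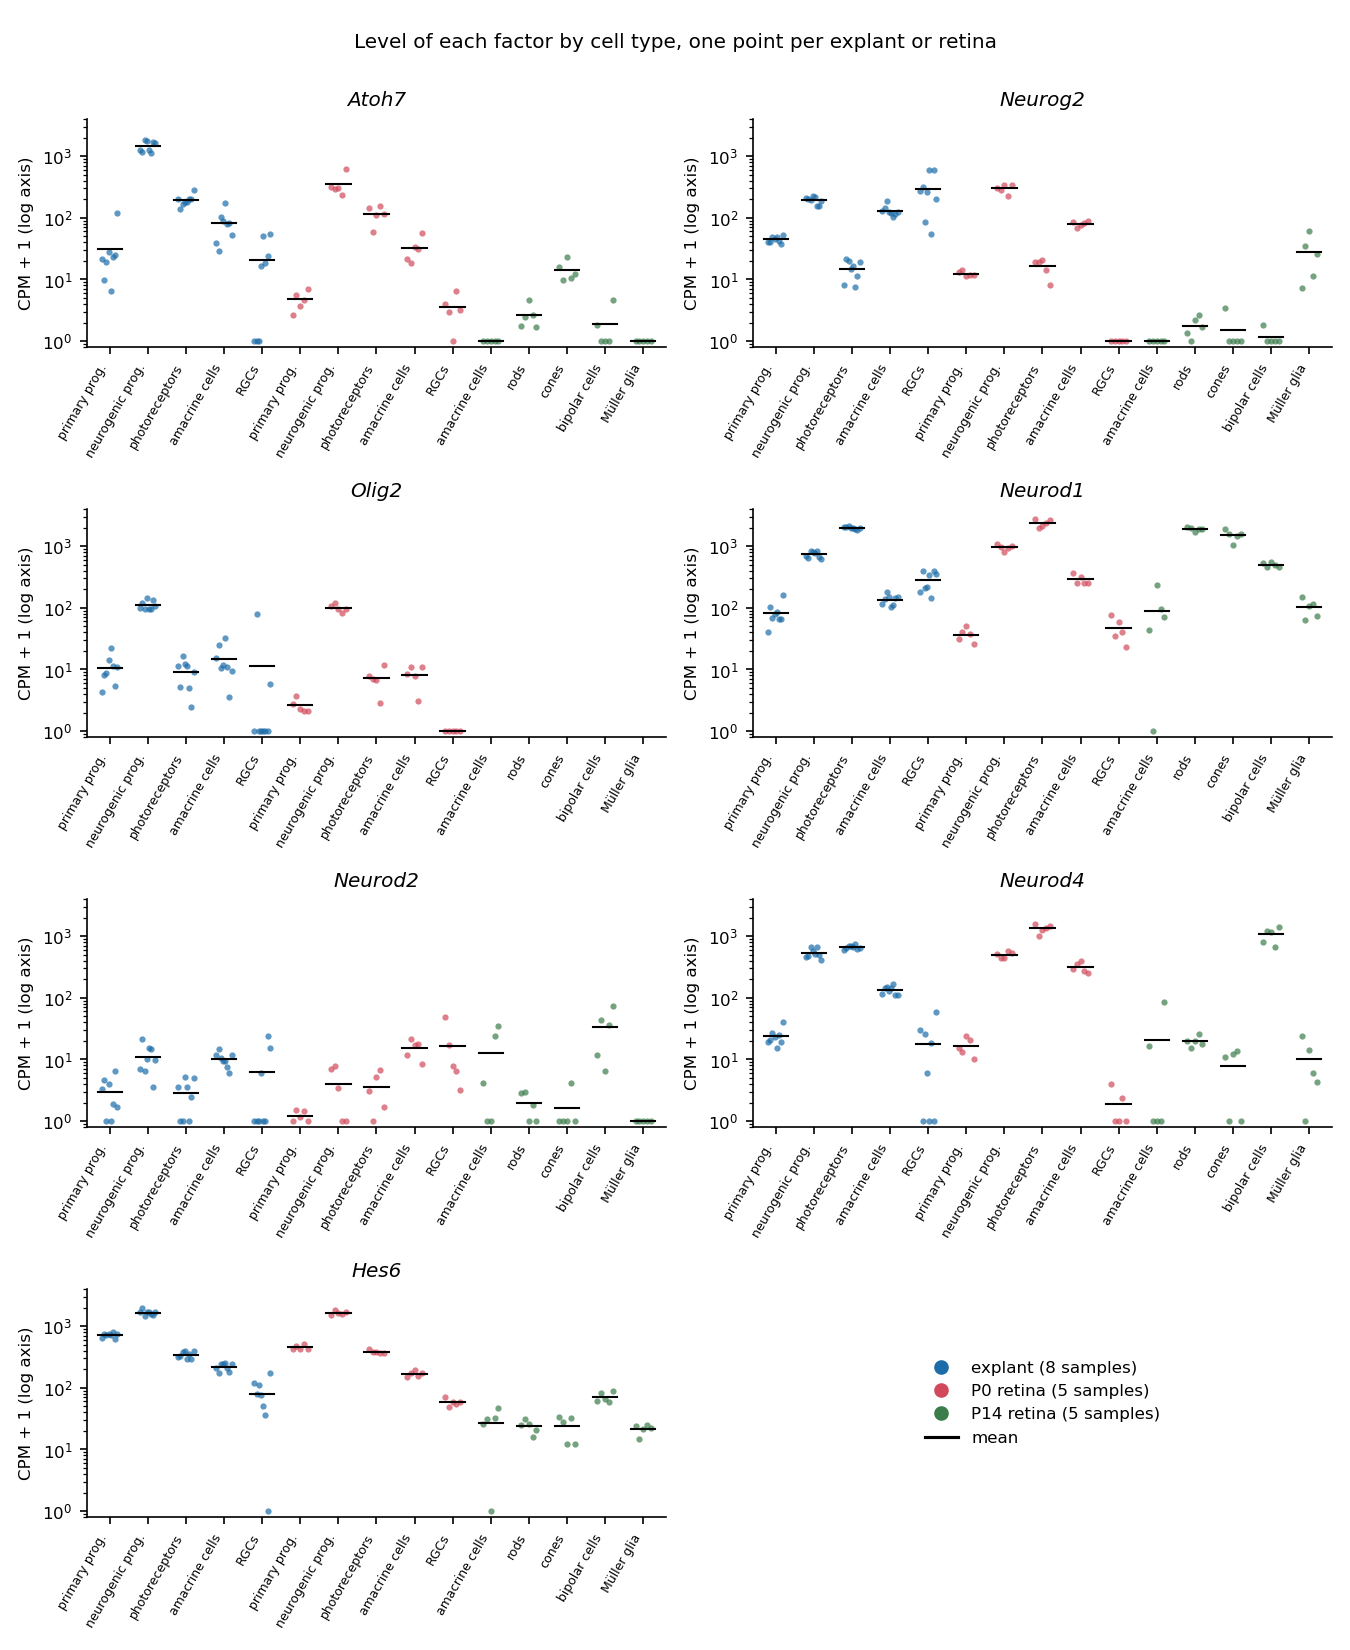
Level of each factor (CPM + 1, log axis) in each cell type of the explant, P0 and P14 libraries, with 1 point per explant or retina and a line at the mean. Atoh7, Olig2 and Hes6 peaked in neurogenic progenitors, Neurod1 in photoreceptors and rods, and Neurod4 in photoreceptors and P14 bipolar cells.

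Within neurogenic progenitors, cells that held a UMI of one factor were compared with cells that did not, after each cell had been thinned to 1500 UMIs so that deep cells did not hold more of every gene. These shares are descriptions over 682 explant cells and 669 P0 cells, and cells of 1 sample share their source. Some positive groups were small, with 4 to 21 Olig2-positive, 5 to 20 Sstr2-positive and 8 to 37 Neurog2-positive cells per explant after thinning. Neurog2-positive cells held a UMI of the cycling genes Mki67 or Top2a in a median of 49.3% of cells, against 24.5% in cells without Neurog2, and were higher in 8 of 8 explants. At P0 the medians were 66.7% and 27.5%, higher in 5 of 5 retinas. Neurod4-positive cells went the other way, at 9.53% against 44.2% in explants and 17.6% against 51.9% at P0, lower in each of the 13 samples. Olig2-positive cells were at 45.8% against 26.8% in explants, higher in 7 of 8, and at 52.9% against 36.2% at P0, higher in 4 of 5. Hes6-positive cells were at 32.3% against 19.4% in explants, higher in 6 of 8, and at 43.3% against 20.0% at P0, higher in 5 of 5.

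Neurod1-positive cells were lower for the cycling genes in 8 of 8 explants, at 18.1% against 44%, and in 4 of 5 P0 retinas, at 34.4% against 45.0%. Without thinning the P0 order turned, to 53.8% against 45.5%, so at P0 it depended on depth. Atoh7 had no order shared by both libraries, with positive cells higher in 2 of 8 explants and 3 of 5 P0 retinas. The factors thus fell along the cycling genes with Neurog2, Olig2 and Hes6 on the high side and Neurod4 on the low side. This held in most or all samples of both libraries.

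**Figure D2:**
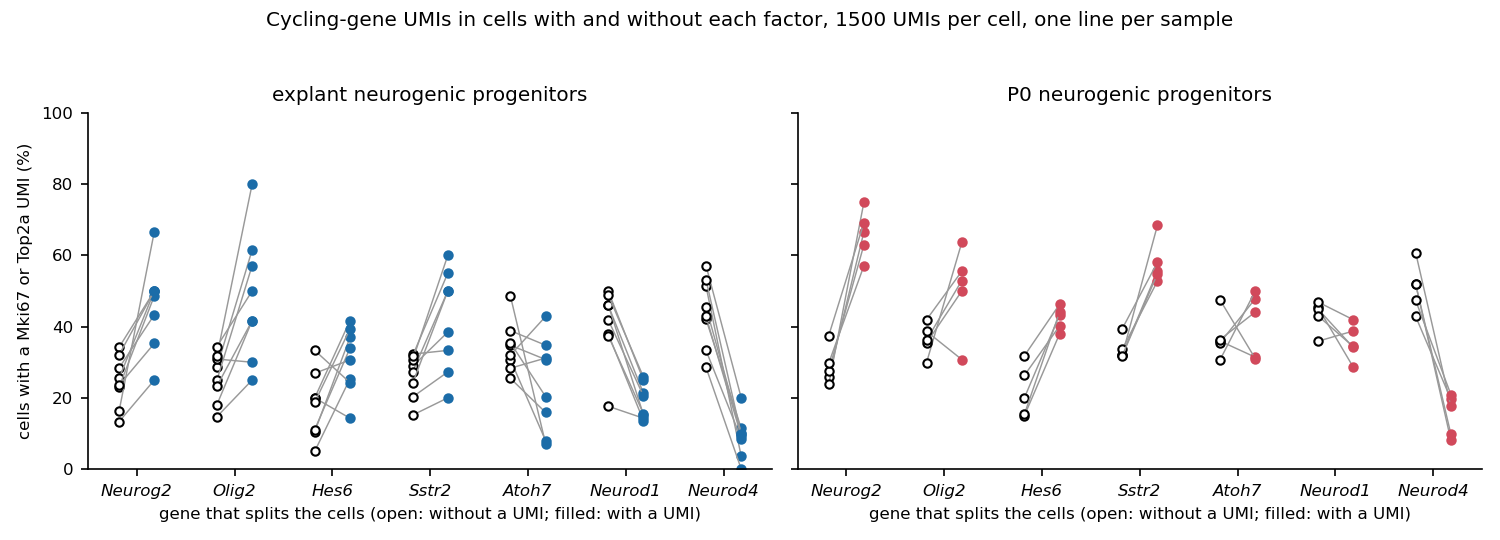
Share of neurogenic progenitors with a Mki67 or Top2a UMI among cells without (open) and with (filled) a UMI of each gene, at 1500 UMIs per cell, with 1 line per explant (left) or P0 retina (right). Lines rise for Neurog2 in all 13 samples and fall for Neurod4 in all 13.

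The same split was seen between the factors. Neurod1 was read in 73.7% of Neurod4-positive cells against 43.3% of the others in explants and in 80.4% against 54.1% at P0, higher in each of the 13 samples. Neurog2 was read in 13.3% of Neurod4-positive cells against 27.9% of the others in explants and in 8.11% against 36.5% at P0, lower in each of the 13. After thinning, Hes6 was likewise less often read with Neurod4, at 73.3% against 85.7% in explants and 73.0% against 88.6% at P0. Without thinning the Hes6 medians were 94.8% against 98% in explants, where 2 of 8 were higher with Neurod4. At P0 both medians were 100%. Cells without Hes6 thus came mostly from thinning, here and in the comparison of cycling genes above, and the Hes6 difference depended on depth. Atoh7 was read in 70.8% of Neurod4-positive cells against 48.4% in explants, higher in 8 of 8, but at P0 the medians were 33.3% and 21.5% and 3 of 5 retinas were higher. Atoh7 was also more often read in cells with an Sstr2 UMI, at 66.8% against 56.1% in 7 of 8 explants and 38.7% against 17.2% in 5 of 5 P0 retinas. Neurog2 was read in 39.2% of Sstr2-positive cells against 17.7% in explants, higher in 6 of 8, and in 36.8% against 25% at P0, higher in 5 of 5.

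The explant series asked whether activating Sstr2 alters neurogenesis, and 500 nM was compared with 0 nM across all genes in each cell type. In neurogenic progenitors, 1 of the 6 factors tested passed, beside 0.0988% of all 6072 genes tested; at an unadjusted p under 0.05 it was 2 of 6, beside 5.24% of genes. Atoh7 was at 1250 and 1156 CPM at 0 nM and at 1681 and 1616 CPM at 500 nM, and the groups did not overlap. The difference was 0.44 on the log2 scale (SE 0.09), or 1.35-fold higher, with an edgeR adjusted p of 0.0259. It lost the call when any 1 of the 4 explants compared was left out, with edgeR adjusted p of 0.0916 to 0.980, and when only cells with a Xist UMI were kept, where the log2 difference was 0.39 and the edgeR adjusted p 0.552. DESeq2 did not call it. Of the 5 explants with mixed sexes, 5 nM replicate 2 was at 1778 CPM and the other 4 at 1143 to 1256. In 5 nM replicate 1 and both 500 nM explants, 98.3 to 99.3% of cells held Xist, and each lay above those 4. Both 500 nM explants thus differed from both 0 nM explants in mix of sexes as well as dose. With all cells of a type kept, sex and dose cannot be told apart in any comparison of 500 with 0 nM. Neurod2 was not tested after the filter on low counts.

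The values did not follow dose. Contrasts added after the data were seen gave 1 of 6 factors called at 5 against 0 nM, beside 0.0823% of all genes, and 0 of 6 at 50 against 0 nM by edgeR, beside 0.0329%. At an unadjusted p under 0.05 there were 3 factors at 5 nM, beside 6.46% of genes, and 2 at 50 nM, beside 5.9%, and DESeq2 called 0 in each. Atoh7 was higher at 5 nM by 0.58 on the log2 scale (SE 0.09), 1.5-fold, with an edgeR adjusted p of 0.000464. At 50 nM the difference was -0.02 (SE 0.10) with an edgeR adjusted p of 0.994, and both explants lay at the level of 0 nM. These contrasts share the 0 nM explants, and the call at 5 nM was lost without 0 nM replicate 2, with an edgeR adjusted p of 0.190. The other factors did not pass at 5 or 50 nM. Their log2 differences at 5 and 50 nM were 0.39 and 0.37 for Neurod4, 0.28 and 0.28 for Neurod1, 0.06 and -0.22 for Neurog2, 0.29 and -0.16 for Olig2 and -0.18 and -0.17 for Hes6. A trend over the logarithm of dose gave 0.20 for Atoh7 with an edgeR adjusted p of 0.996.

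**Figure D3:**
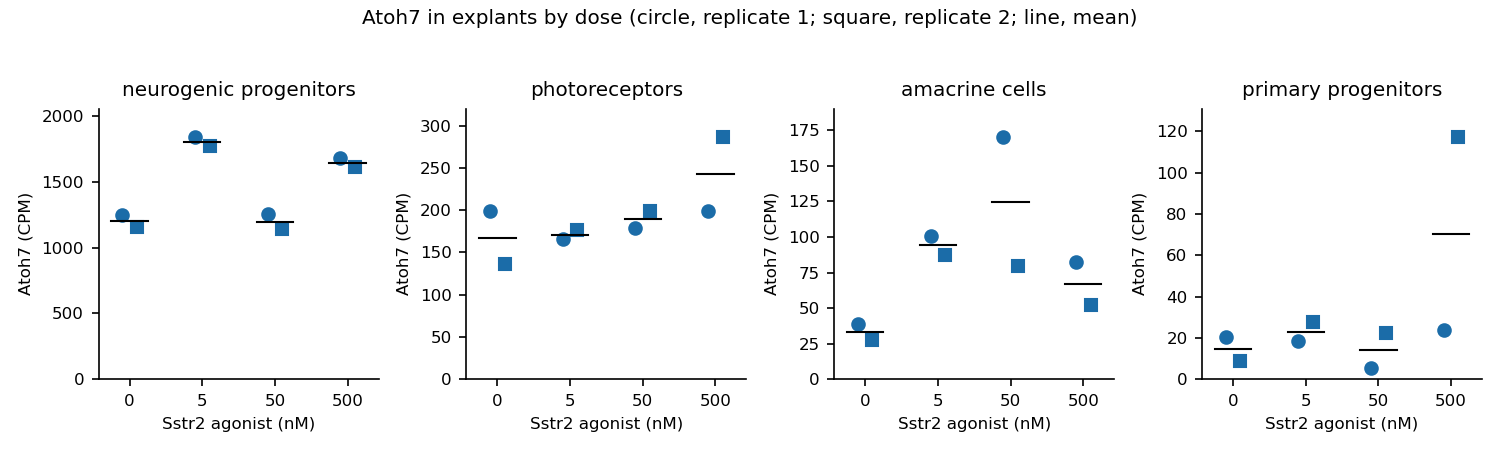
Atoh7 level (CPM, linear axis from 0) against agonist dose in 4 explant cell types, with a circle for replicate 1, a square for replicate 2 and a line at the mean. In neurogenic progenitors the 5 and 500 nM explants lie between 1616 and 1840 and the 0 and 50 nM explants between 1143 and 1256; in primary progenitors 1 explant at 500 nM stands apart at 117.

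The other factors tested in neurogenic progenitors did not pass. Hes6 was at 1705 and 1965 CPM at 0 nM and at 1493 and 1696 at 500 nM, a log2 difference of -0.20 (SE 0.09) with an edgeR adjusted p of 0.902. Neurog2 was at 210 and 200 CPM against 157 and 186, a difference of -0.27 (SE 0.19). Both lay lower at 500 nM with no overlap between the groups. With 2 explants per group such separation is only a description, and its share over all genes was not counted. The differences for Olig2, Neurod1 and Neurod4 were 0.12 (SE 0.23), -0.05 (SE 0.12) and -0.06 (SE 0.14), with overlapping groups. Their 95% intervals ran from 0.793- to 1.5-fold for Olig2 and from 0.827- to 1.13-fold for Neurod1.

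In primary progenitors, 1 of 6 factors passed, beside 0.317% of all genes tested, and 2 were at an unadjusted p under 0.05, beside 8.63%. Atoh7 was at 20.4 and 8.94 CPM at 0 nM, at 18.3 and 27.4 at 5 nM, at 5.41 and 22.3 at 50 nM and at 23.7 and 117 at 500 nM. The fitted difference was 2.22 on the log2 scale (SE 0.45), 4.65-fold, with an edgeR adjusted p of 0.00684. The result rested on 500 nM replicate 2, and without it the difference was 0.55 with an edgeR adjusted p of 0.925. The call was also lost without either 0 nM explant and under DESeq2. In 500 nM replicate 2, 49 of 369 cells held Atoh7, and 8 cells with at least 5 UMIs held 58.9% of its 175 UMIs. Among primary progenitors, the same explant had the highest levels of the neurogenic progenitor, photoreceptor, rod, cone, amacrine and bipolar lists. The neurogenic progenitor list was at 363 CPM, against 271 and 333 in the 0 nM explants and 348 in 5 nM replicate 1. The photoreceptor list was at 209 CPM, against 90.5 and 118 in the 0 nM explants, the cone list at 109 and the amacrine list at 160. Other explants were higher for the RGC, horizontal cell, Müller glia and vascular lists. The RGC list, for example, was at 168 CPM in 5 nM replicate 2 against 153. The part of these markers in the Atoh7 level was not tested. Neurod1 was at 39.6 and 100 CPM at 0 nM and 64.7 and 158 at 500 nM, with a log2 difference of 0.80 (SE 0.27) and an edgeR adjusted p of 0.303. The differences were 0.68 (SE 0.36) for Neurod4, 0.60 (SE 0.68) for Olig2, 0.15 (SE 0.24) for Neurog2 and -0.08 (SE 0.12) for Hes6, none of which passed, and Neurod2 was not tested.

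In photoreceptors 0 of 5 factors passed by edgeR, beside 0.0941% of all genes. By unadjusted p under 0.05 it was 1, beside 5.66% of genes, and DESeq2 called 0. Atoh7 was at 199 and 136 CPM at 0 nM and 199 and 286 at 500 nM, a log2 difference of 0.44 (SE 0.15) with an edgeR adjusted p of 0.635. Leaving out 1 explant at a time gave differences of 0.17 to 0.84 for Atoh7. The value was 0.71 without 500 nM replicate 1, a fit with 1 explant at 500 nM. Neurod1 was at 2064 and 2078 CPM against 1859 and 1982, a difference of -0.09 (SE 0.09). Neurod4, Hes6 and Neurog2 differed by 0.05 (SE 0.10), 0.07 (SE 0.13) and 0.28 (SE 0.57), and Olig2 and Neurod2 were not tested.

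In amacrine cells 0 of 6 factors passed by edgeR, beside 0.269% of all genes. By unadjusted p under 0.05 it was 2, beside 5.28% of genes, and DESeq2 called 0. Atoh7 was at 38.7 and 27.5 CPM at 0 nM, 101 and 87.4 at 5 nM, 170 and 79.7 at 50 nM, and 82.2 and 52.3 at 500 nM. Both 0 nM explants lay below all 6 treated ones, and the difference at 500 nM was 0.91 (SE 0.27) with an edgeR adjusted p of 0.305. It passed without any 1 of the 4 explants at 5 and 50 nM, with edgeR adjusted p of 0.038 to 0.043, and without 500 nM replicate 2, at 0.0216. Olig2 was at 14.3 and 24.1 CPM against 2.57 and 8.33, a difference of -1.61 (SE 0.57) with an edgeR adjusted p of 0.598. Amacrine cells of all explants together held 83 Olig2 UMIs, and in 500 nM replicate 1, 4 UMIs would give 5.14 CPM. Neurod1, Hes6, Neurod4 and Neurog2 differed by 0.26 (SE 0.14), 0.10 (SE 0.13), -0.15 (SE 0.15) and -0.17 (SE 0.16), and Neurod2 was not tested. The microglia list in these cells was at 195 and 148 CPM at 500 nM against 39.9 and 0 at 0 nM, and its part was not tested.

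Summed over all cells, 1 of 7 factors passed, beside 0.193% of all genes, and 3 were at an unadjusted p under 0.05, beside 10.9%. Atoh7 was at 222 and 219 CPM at 0 nM and 308 and 316 at 500 nM, a log2 difference of 0.49 (SE 0.08) or 1.41-fold, with an edgeR adjusted p of 0.0148. The call was lost without either 0 nM explant and without 500 nM replicate 2, where the edgeR adjusted p was 0.0571, as well as under DESeq2, under the dose trend and in Xist-positive cells. Over all cells, a change in the number of cells of a type cannot be told apart from a change in transcript per cell. Neurod1 was at 691 and 688 CPM at 0 nM and 603 and 491 at 500 nM, a difference of -0.34 (SE 0.11) with an edgeR adjusted p of 0.254. Neurod4 was at 262 and 283 CPM against 252 and 192, a difference of -0.30 (SE 0.13) with an edgeR adjusted p of 0.423. Leaving out 1 explant at a time gave differences of -0.51 to -0.19 for Neurod1 and -0.51 to -0.10 for Neurod4. Both were at -0.51 without 500 nM replicate 1, a fit with 1 explant at 500 nM. Hes6, Neurog2, Olig2 and Neurod2 differed by 0.04, -0.11, -0.21 and -0.50 and did not pass.

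The P0 allelic series asked whether loss of Sstr2 alters retinal neurogenesis in vivo, and knockout was compared with wild type. Since there was 1 wild-type retina per age, only the other genotypes could inform the replicate spread. Sstr2 itself was at 112 CPM in neurogenic progenitors of the wild-type retina, 189 and 248 in heterozygous and 294 and 375 in knockout retinas, a log2 difference of 1.57 with an edgeR adjusted p of 0.00412. The transcript was thus still counted in the retinas labeled knockout, and since a 3′ tag can lie outside the deleted part, this neither checks nor contradicts the label.

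In P0 neurogenic progenitors 0 of 6 factors passed by edgeR, beside 0.0334% of all genes. By unadjusted p under 0.05 it was also 0, beside 4.9% of genes, and DESeq2 called 0. Atoh7 was at 320 CPM in the wild type, 294 and 302 in heterozygous and 237 and 616 in knockout retinas. The 2 knockout retinas lay on either side of all others, and the difference was 0.40 (SE 0.34) with an edgeR adjusted p of 0.941. Without knockout replicate 1 the difference was 0.93, and without knockout replicate 2 it was -0.43. Each of these fits compared 1 knockout with 1 wild-type retina. Atoh7 was read in 75 of 119 neurogenic progenitors of knockout replicate 2, or 63.0%, against 43.6 to 45.4% in the other 4 retinas. Olig2, Neurod1, Neurog2, Hes6 and Neurod4 differed by -0.29, -0.20, -0.12, 0.07 and 0.14 on the log2 scale, and Neurod2 was not tested. The other Xist-positive retina, heterozygous replicate 1, was at 294 CPM of Atoh7. Neurog2 was at 306 CPM in the wild type, 280 and 336 in heterozygous and 227 and 339 in knockout retinas, and Hes6 at 1538 in the wild type, 1817 and 1646 in heterozygous and 1570.5 and 1674 in knockout retinas. The genotypes overlapped for Neurog2, and for Hes6 both knockout values lay between the wild-type and the highest heterozygous value.

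In the other P0 cell types no factor passed by edgeR: 0 of 6 in primary progenitors, beside 0.0251% of all genes, 0 of 6 in photoreceptors, beside 0.00987%, 0 of 7 in amacrine cells, beside 0.00964%, and 0 of 7 over all cells, beside 0%. At an unadjusted p under 0.05 there were 1, 0, 2 and 1 factors in that order, beside 3.87%, 4.59%, 4.12% and 5.09% of genes, and DESeq2 called 0 in each. In amacrine cells, Neurod1 was at 362 CPM in the wild type, 255 and 321 in heterozygous and 253 and 247 in knockout retinas, a difference of -0.52 (SE 0.13) with an edgeR adjusted p of 0.646. Both knockouts lay below all others. Atoh7 in amacrine cells was at 20.7 CPM in the wild type, 17.5 and 33.3 in heterozygous and 30.5 and 54.7 in knockout retinas, a difference of 1.07 (SE 0.39) with an edgeR adjusted p of 0.998. Without knockout replicate 1, which left 1 knockout against 1 wild-type retina, the difference was 1.43. The log2 differences of Olig2, Neurod4, Neurog2, Neurod2 and Hes6 in amacrine cells lay between -0.21 and 0.16. In primary progenitors Atoh7 was at 1.61 CPM in the wild type, 4.65 and 2.74 in heterozygous and 3.72 and 6.13 in knockout retinas, a difference of 1.59 (SE 0.60) with an edgeR adjusted p of 0.993, and Olig2, Neurog2, Neurod1, Neurod4 and Hes6 differed by -0.68 to 0.10. In photoreceptors Neurog2 differed by -0.90 (SE 0.43), and Hes6, Neurod4, Atoh7, Neurod1 and Olig2 by -0.20 to -0.02. Over all cells Neurod1 differed by -0.27 (SE 0.10), and Neurod2, Olig2, Neurod4, Neurog2, Hes6 and Atoh7 by -0.65 to 0.21. Neurod2 was not tested in primary progenitors or photoreceptors.

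**Figure D4:**
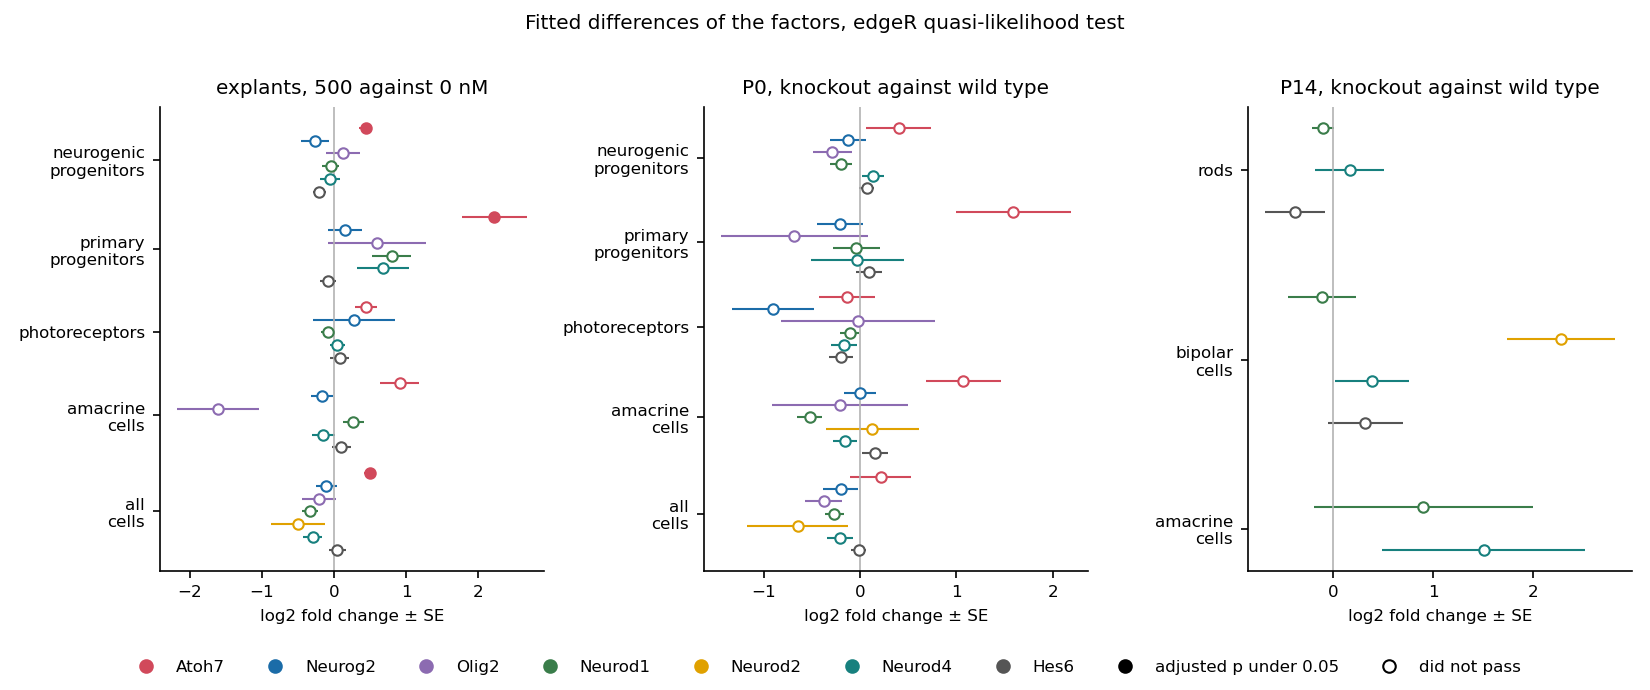
Log2 fold change ± SE of each factor tested, for 500 against 0 nM in explants (left) and for knockout against wild type at P0 (middle) and P14 (right), by cell type, filled where the edgeR adjusted p was under 0.05. The 3 filled points are Atoh7 in explant neurogenic progenitors, primary progenitors and all cells.

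At P14, when neurogenesis has ended, most factors were low, and the cell types in which they were read differed between factors. Neurod1 was at 1904 ± 147 CPM in rods and 1514 ± 298 in cones (SD, n = 5), with overlapping ranges, and at 495 ± 39.9 in bipolar cells, apart from both. Rods and cones depend on Neurod1 for their maintenance. In Müller glia the level was 5.33% of that in rods, beside 5.88% for the summed rod marker list, and in amacrine cells 4.65% beside 3.84%, whereas in bipolar cells it was 26.0% beside 9.23%. The Müller glia value was thus below that of the rod list.

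Neurod4 was read mainly in bipolar cells, which held 93.5% of its P14 UMIs. The level was 816 CPM in the wild type, 1226 and 1174 in heterozygous and 677 and 1431 in knockout retinas, or 1065 ± 310 (SD, n = 5), and no other type exceeded a mean of 19.8. When each cell had equal weight the mean was 719. Hes6 was also highest in bipolar cells, at 71.0 ± 13.9 CPM, with the other 4 types at 20.7 to 26.3.

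Neurod2 at P14 had its highest mean in bipolar cells, at 10.8 CPM in the wild type, 42.0 and 5.39 in heterozygous and 34.9 and 71.4 in knockout retinas. The lower heterozygous value was 1 UMI in 29 cells, where 3 UMIs would give 16.2 CPM. The mean of 32.9 ± 26.5 CPM rested on 101 UMIs, and in knockout replicate 2 4 cells with at least 5 UMIs held 67.5% of the UMIs. Amacrine cells came next at 11.9 ± 15.4 CPM, from 12 UMIs in 68 cells, and their range overlapped that of bipolar cells.

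Neurog2 at P14 was read nearly only in Müller glia, the glial cells of the retina, which held 90.1% of its UMIs. The level was 6.19 CPM in the wild type, 33.6 and 60.7 in heterozygous and 10.2 and 25 in knockout retinas. The higher heterozygous value was 9 UMIs in 14 cells, 7 of them in 1 cell, where 3 UMIs would give 20.2 CPM. The mean was 27.1 ± 21.8 CPM (SD, n = 5) against 0.791 ± 0.667 in rods, with ranges apart. Neurog2 UMIs were seen in 6.67 to 22.9% of Müller glia per retina, at a median of 15108 UMIs per cell, against 0 to 0.590% of rods at 3374 UMIs per cell. After thinning to 1500 UMIs the shares were 0 to 21.4% in Müller glia and 0 to 0.299% in rods. Atoh7 was nearly gone at P14, with 15 UMIs in cones at 13.4 ± 5.56 CPM and 1.64 ± 1.18 in rods. No Atoh7 UMI was read in 266 Müller glia, which allows up to 1.13% of cells with a UMI.

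**Figure D5:**
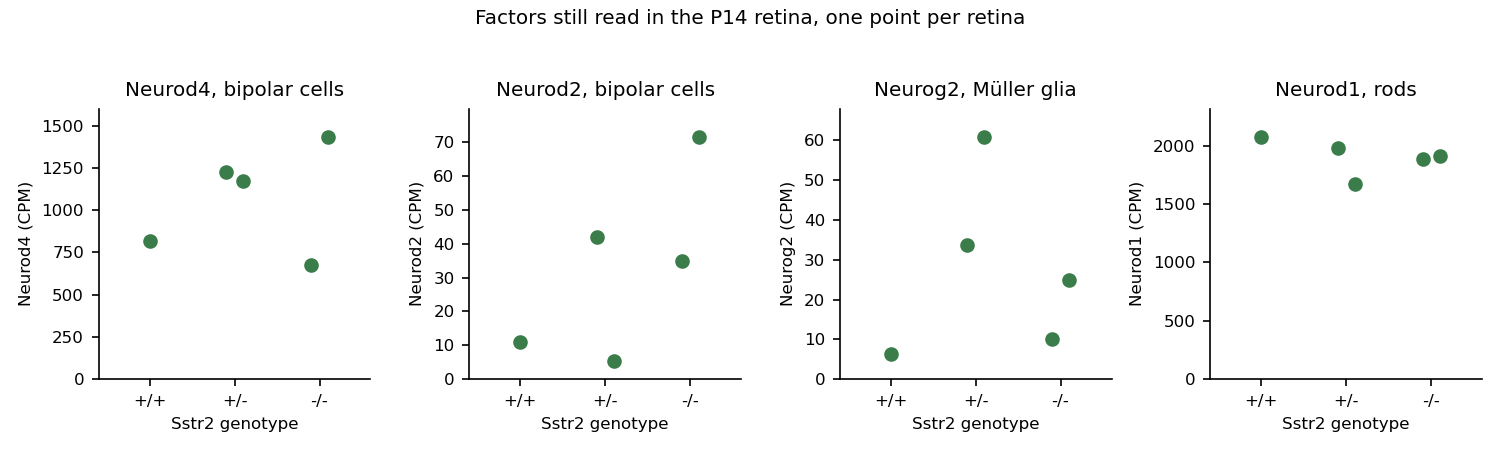
Level (CPM, linear axis from 0) of Neurod4 and Neurod2 in bipolar cells, Neurog2 in Müller glia and Neurod1 in rods at P14, by Sstr2 genotype with 1 point per retina. The knockout points lie apart from each other for Neurod4 (677 and 1431) and close together for Neurod1.

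Between genotypes at P14, 0 of 3 factors passed in rods by edgeR, beside 0.0211% of all genes, 0 of 4 in bipolar cells, beside 0.091%, and 0 of 2 in amacrine cells, beside 0%. At an unadjusted p under 0.05 there were 0, 1 and 0 factors, beside 3.06%, 1.73% and 1.87% of genes, and DESeq2 called 0 in each. Neurod1 in rods was at 2070 CPM in the wild type, 1981 and 1675 in heterozygous and 1884 and 1910 in knockout retinas, a difference of -0.10 (SE 0.11) with an interval of 0.797- to 1.09-fold. In rods Neurod4 and Hes6 differed by 0.16 (SE 0.35) and -0.38 (SE 0.30). In bipolar cells Neurod4, Hes6 and Neurod1 differed by 0.39 (SE 0.37), 0.32 (SE 0.38) and -0.12 (SE 0.34), and in amacrine cells Neurod1 and Neurod4 by 0.90 (SE 1.10) and 1.51 (SE 1.02). The remaining factors of each type were not tested after the filter on low counts. Neurod2 in bipolar cells differed by 2.28 (SE 0.54) with an edgeR adjusted p of 0.0566. Leaving out 1 heterozygous or knockout retina at a time gave differences of 1.71 to 2.71. Each of these fits left 1 retina in a second genotype beside the single wild type, so only the differences are given.

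Genes that act with these factors were read from 7 lists with 52 genes in all, covering E proteins, Id inhibitors, Hes and Hey repressors, the Notch pathway, other retinal bHLH factors, genes downstream of proneural factors and neuropeptide genes of neurogenic progenitors. At 500 against 0 nM, 0 of 33 tested list genes passed in neurogenic progenitors by edgeR, beside 0.0988% of all genes, with a median log2 difference of -0.04, and in photoreceptors 0 of 27, beside 0.0941%. In primary progenitors 1 of 35 passed, beside 0.317% of all genes. It was Hes5, a Notch-driven repressor of proneural factors, lower by a log2 difference of -0.59 (SE 0.12) with an edgeR adjusted p of 0.00496, and the call was lost without either 0 nM explant and under DESeq2. Hes5 was also the 1 gene of 33 called in neurogenic progenitors at 5 against 0 nM, beside 0.0823%, at -0.79 with an edgeR adjusted p of 0.000195, a call lost without 5 nM replicate 2, under DESeq2 and in Xist-positive cells. In amacrine cells 2 of 31 passed, beside 0.269%, with Otx2, a photoreceptor and bipolar factor, higher by 1.34 and the neuropeptide gene Gal at -4.61. Both calls were lost without 0 nM replicate 1, under DESeq2, under the dose trend and in Xist-positive cells, that of Otx2 also without 500 nM replicate 2 and that of Gal also without 500 nM replicate 1. Over all explant cells 1 of 47 passed, beside 0.193%, which was Isl1, a factor of RGCs and other neurons, higher by 1.39. The Isl1 call was lost without either 0 nM explant, either 5 nM explant or 500 nM replicate 2, under DESeq2, under the dose trend and in Xist-positive cells. In the allelic series Sstr2 was the 1 gene of 36 called in P0 neurogenic progenitors, beside 0.0334%, and was not called in knockout against all other retinas. Gal, at 2.86 with an edgeR adjusted p of 0.0486, was the 1 of 25 called in P14 bipolar cells, beside 0.091%, a call lost without knockout replicate 2, where the difference was 0.73, with DESeq2 size factors, under DESeq2 and in knockout against all other retinas. None of the E proteins, Id inhibitors or Notch ligands and receptors passed in any of these comparisons by edgeR.

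The genes whose levels varied most like each factor across cell types were found by Pearson correlation of log2(CPM + 10), centered within each library, over 15 cell type means and 13173 genes. These points share libraries and cells, so the values are descriptions. For Atoh7 they were 3110035E14Rik (r = 0.96), Pkib (0.91) and Zeb1 (0.90). For Neurog2 the values were lower, with 9330198N18Rik (0.81), Tspan18 (0.81) and Smarcad1 (0.78). For Neurod1 they were Sema3f (0.96), Amer2 (0.94) and Crx (0.94), a photoreceptor transcription factor. For Neurod4 they were Rcor2 (0.90), Efs (0.90) and Hsf2 (0.89), for Neurod2 Arhgef25 (0.93), Hcn3 (0.91) and Dgki (0.91), and for Hes6 Nuak2 (0.97), Hdac1 (0.96) and Cenpj (0.96). For Olig2, over the 10 explant and P0 means and 12503 genes, they were Sstr2 (0.99), A930007I19Rik (0.99) and the Notch ligand Dll4 (0.98). The genes named for the other factors depended on the libraries used. Over the same 10 means, none of those named for Neurog2, Neurod4 or Hes6 was among the highest 5. Only 3110035E14Rik and Zeb1 for Atoh7, Sema3f for Neurod1 and Arhgef25 for Neurod2 remained there.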

How the data were processed

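MULTI-seq, which tags the cells of each sample with a lipid-anchored barcode before pooling, was used by the study to make 3 single-cell 3′ libraries. The deposited values were whole-number UMI counts per gene and cell, which the authors made with Cell Ranger 3.1.0 and Seurat 3 on mm10, per the labels. The authors assigned cells to samples with deMULTIplex and named cell types from cluster markers, and their filters on cells are not given in the sources used here. Deposited SCT-normalized values were not used. Here counts were summed per explant or retina and cell type. They were tested with edgeR 4.0.16 (quasi-likelihood, TMM, filterByExpr) in R 4.3.3 with Benjamini-Hochberg adjustment over all genes at 0.05; DESeq2 1.42.0 was an alternative. On counts simulated with a fixed dispersion for explant neurogenic progenitors, edgeR recovered 77.0% of 200 genes changed 4-fold among 6133 genes. It made 9 false calls. DESeq2, run without filterByExpr on 13815 genes, recovered 51.5% of the same 200 genes and made 1 false call. It thus missed more of the 4-fold changes than edgeR did. Differences as small as those of the factors in these cells were not simulated. No doublet caller was run; deMULTIplex marks cells that carry several sample barcodes. Whether an explant sample held 1 or more retinas is not stated, so p-values measure the spread between these samples, which may be technical. Explant samples with a Xist UMI in 57.7 to 62.4% of cells held cells of both sexes, and so of more than 1 animal. Whether this came from pooled retinas or from the assignment of cells was not tested. Limits from a count of 0 cover counting error only. Each SE was the size of the edgeR log2 difference divided by the square root of its F statistic, and so rests on the spread between samples. Intervals of fold changes took this SE with a normal quantile and may be too narrow for so few samples. By rule, all 7 factors are named in every comparison, list genes where they passed, and the 3 genes most like each factor; the factors and lists were chosen with earlier results of these data known. Coordinates are from GENCODE M21 and promoters from RefSeq. Alternatives were other size factors, no filter on low counts, DESeq2, leaving out each sample, a dose trend, cells with a Xist UMI, and knockout against all other retinas.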

Additional observations from a re-analysis of the deposited data

Results flagged for a closer look

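For Neurod1, the 500 nM explants lay on opposite sides of the 0 nM explants in photoreceptors and amacrine cells, although Neurod1 passed the edgeR test in neither type. In photoreceptors both 500 nM explants, at 1859 and 1982 CPM, lay below those at 0 nM, at 2064 and 2078. In amacrine cells both, at 143 and 151 CPM, lay above those at 0 nM, at 116 and 138. The log2 ratio in photoreceptors minus that in amacrine cells was -0.32, and this difference was not tested. How many of all genes lay on opposite sides in this way was not counted.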

How the results depend on the processing

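No paired analysis was possible because the labels give no replicate number that joins samples across doses or genotypes, so the planned replicate block was not run. The only wild-type retina per age could not be left out. Leaving out a heterozygous or knockout retina left 1 retina in that genotype too, so the spread came from the remaining pair alone. The counts of genes called moved as follows. In explant neurogenic progenitors DESeq2 called 0 and Xist-positive cells 3. In primary progenitors the count was 67 with no filter, 2 by DESeq2 and 45 for the dose trend. In photoreceptors it was 12, 0 and 2, with 3 in Xist-positive cells, and in amacrine cells 39, 0 and 10, with 9. Over all cells it was 288, 2 and 0, with 1. At P0, no filter gave 6 in neurogenic progenitors, 6 in primary progenitors, 34 in photoreceptors and 54 in amacrine cells; DESeq2 gave 6 in primary progenitors and 8 over all cells; and knockout against all other retinas gave 1, 1 and 2 in neurogenic progenitors, primary progenitors and photoreceptors and 1 over all cells. At P14, no filter gave 31 in rods, DESeq2 1 in bipolar cells, and knockout against all others 1 in rods, 1 in bipolar cells and 1 in amacrine cells. The 5 nM contrast gave 0 by DESeq2 and 0 in Xist-positive cells; the 50 nM contrast gave 4 with no filter and 0 in both of those. The 5 and 50 nM contrasts were chosen after seeing the data. Leaving out 1 sample gave 4 to 7 genes in explant neurogenic progenitors, 6 to 241 in primary progenitors, 4 to 22 in photoreceptors, 18 to 35 in amacrine cells and 0 to 322 over all cells. At P0 it gave 3 to 39, 4 to 26, 1 to 27, 14 to 62 and 0 to 17 in the same order. At P14 it gave 1 to 25 in rods and 10 to 22 in bipolar cells, and it gave 1 to 17 for 5 nM and 0 to 3 for 50 nM. Factors called fell to 0 in explant neurogenic progenitors under DESeq2, the trend and Xist-positive cells, in primary progenitors and at 5 nM under DESeq2, at 5 nM in Xist-positive cells, and over all cells under DESeq2, the trend and Xist-positive cells. With no filter they rose to 2 in primary progenitors and over all cells, and to 1 in explant amacrine cells, P0 amacrine cells and P14 bipolar cells. Leaving out 1 sample gave 0 to 1 factors in explant neurogenic progenitors, photoreceptors and amacrine cells, 5 nM, P0 neurogenic progenitors, P0 amacrine cells and P14 bipolar cells, 0 to 2 in primary progenitors and 0 to 3 over all explant cells. Log2 differences that changed sign were as follows. In explant neurogenic progenitors, Xist-positive cells gave 0.19 for Neurod1 and 0.063 for Neurod4 at 500 nM, and -0.040 at 5 nM and 0.050 at 50 nM for Neurog2. The trend gave -0.016 for Olig2 there, and for Hes6 -0.00018 in photoreceptors and -0.0075 over all cells. Knockout against all others gave 0.020 for Neurod1 and -0.035 for Hes6 in P0 neurogenic progenitors, 0.17 for Neurod1, 0.14 for Neurod4 and 0.37 for Atoh7 in P0 photoreceptors, -0.069 for Hes6 and -0.39 for Neurod2 in P0 amacrine cells, and -0.011 for Neurod4 in P14 bipolar cells. Neurog2 in P0 amacrine cells was at -0.0012 by DESeq2 and -0.011 with no filter. Leaving out 1 sample, the explant neurogenic values ran from -0.057 to 0.30 for Olig2, -0.10 to 0.0084 for Neurod1 and -0.20 to 0.073 for Neurod4 at 500 nM, -0.11 to 0.12 for Neurog2 and -0.19 to 0.43 for Olig2 at 5 nM, and -0.43 to 0.054 for Neurog2 and -0.075 to 0.047 for Atoh7 at 50 nM. In explant primary progenitors they ran from -0.20 to 0.029 for Hes6, -0.0031 to 1.49 for Neurod1, -0.13 to 0.31 for Neurog2, -0.055 to 1.02 for Neurod4 and -0.20 to 1.10 for Olig2. In explant photoreceptors they ran from -0.14 to 0.29 for Hes6, -0.57 to 0.95 for Neurog2 and -0.025 to 0.090 for Neurod4, and for Hes6 from -0.12 to 0.31 in amacrine cells and -0.13 to 0.22 over all cells. At P0 they ran from -0.43 to 0.93 for Atoh7 and -0.42 to 0.13 for Neurog2 in neurogenic progenitors; -0.070 to 0.25 for Hes6, -0.35 to 0.23 for Neurod1 and -0.68 to 0.45 for Neurod4 in primary progenitors; -0.38 to 0.11 for Atoh7 and -1.81 to 0.63 for Olig2 in photoreceptors; -0.066 to 0.065 for Neurog2, -0.54 to 0.64 for Neurod2 and -1.83 to 0.46 for Olig2 in amacrine cells; and -0.085 to 0.052 for Hes6 and -0.23 to 0.55 for Atoh7 over all cells. At P14 Neurod4 ran from -0.15 to 0.45 in rods and -0.23 to 0.82 in bipolar cells. Of 934 log2 differences under an alternative, 811 kept their direction and side of the threshold. The cause of these changes was not tested. Of 100 levels, 92 stayed within 1 SD when cells were weighted equally. Thinning to 1500 UMIs moved 70 of 100 shares of cells with a UMI and 9 of 20 co-detection differences. Over all cells of the P0 retinas edgeR called 0 genes, with 698 at an unadjusted p under 0.05, and in P14 amacrine cells 0, with 88 and 0 by DESeq2. The smallest groups, such as 85 P0 RGCs, limit what low factors could show.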
